A study of Mus musculus with 16 samples.

Results

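Trimethylation of lysine 4 of histone H3 (H3K4me3) was examined at promoters in 4 mouse induced pluripotent stem cell (iPSC) lines, namely PTC11 and PTC12 from proximal tubule cells (PTC) and TTF1 and TTF4 (TT1 and TT4 in the labels) from tail tip fibroblasts (TTF). All 43984 genes of the deposited histone table were taken, and 21758 of them had an H3K4me3 value in at least 1 line. The 4 H3K4me3 libraries analysed here, 1 per line, are a part of the 16 libraries of the series, which also holds H3K36me3, H3K27me3 and CpG methylation. The donor animals were littermates of 8 to 10 weeks that carried the same 4 transgenes in both groups, SLC34a1-GCE, tdTomato, rtTAROSA (neo-in) and OKMS-250, each on 1 allele, so that doxycycline induced Oct4, Klf4, c-Myc and Sox2 in either cell type. The mice received tamoxifen from 6 weeks of age for 2 weeks, which activated the Cre expressed from Slc34a1, a gene of proximal tubule cells, and tubule cells positive for tdTomato and GFP were sorted. Tail tip fibroblasts received Cre from an episomal plasmid instead. Doxycycline was given to both at 1.5 µg/ml for 14 days. Each line is 1 clone that grew without doxycycline at early passage, so that a line is the replicate and n is 2 per origin.

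H3K4me3 sits on nucleosomes around the start sites of genes that are transcribed or poised, and is deposited by the SET1 and MLL complexes. These complexes contain CXXC zinc finger proteins that bind unmethylated CpGs, so that CpG islands carry the mark in most cells. In pluripotent cells developmental regulators also hold it together with H3K27me3, while silent tissue genes with few CpGs lack it.

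A gene had a value only where a peak was retained at its transcription start site (TSS). The value is the input-subtracted RPKM (reads per kilobase of peak, scaled to the reads of the library) averaged over the peaks from 2 kb before to 3 kb after the TSS. The study states 50000000 reads for each library. The files hold no counts, so that mapped depth is unknown and precision comes only from the spread between lines. Values were listed for 15114 genes in PTC11 and 19990 in PTC12, and for 19448 in TTF1 and 15368 in TTF4, which left 22226 genes (50.5%) without a value in any line. The counts split each origin, since PTC11 and TTF4 had far fewer marked genes than PTC12 and TTF1. The TTF lines had on average 144 genes fewer than the PTC lines, from 15368 to 19448 against 15114 to 19990, and the exact two-sided permutation test over lines gave p = 1. With 2 lines against 2 this test cannot go below 0.333.

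All lines had a value at 13709 genes, 31.2% of those listed. The remaining 8049 marked genes had a value in 1 to 3 lines. The largest such group was that of 1984 genes marked in PTC12 and TTF1 only. Genes marked in all lines but PTC11 numbered 1193, and genes marked in all lines but TTF4 numbered 1115. Only 23 genes lacked a value in PTC12 alone and 22 in TTF1 alone. By contrast, 59 genes had a value in both PTC lines and neither TTF line, and 84 genes the reverse. The other pairs across origins were also few, with 121 genes in PTC12 and TTF4 only, 64 in PTC11 and TTF1 only and 17 in PTC11 and TTF4 only. Among pairs of lines, only PTC12 with TTF1 stood out. Genes marked in both lines of 1 origin alone were thus 0.134% and 0.191% of the genes listed.

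**Figure D1:**
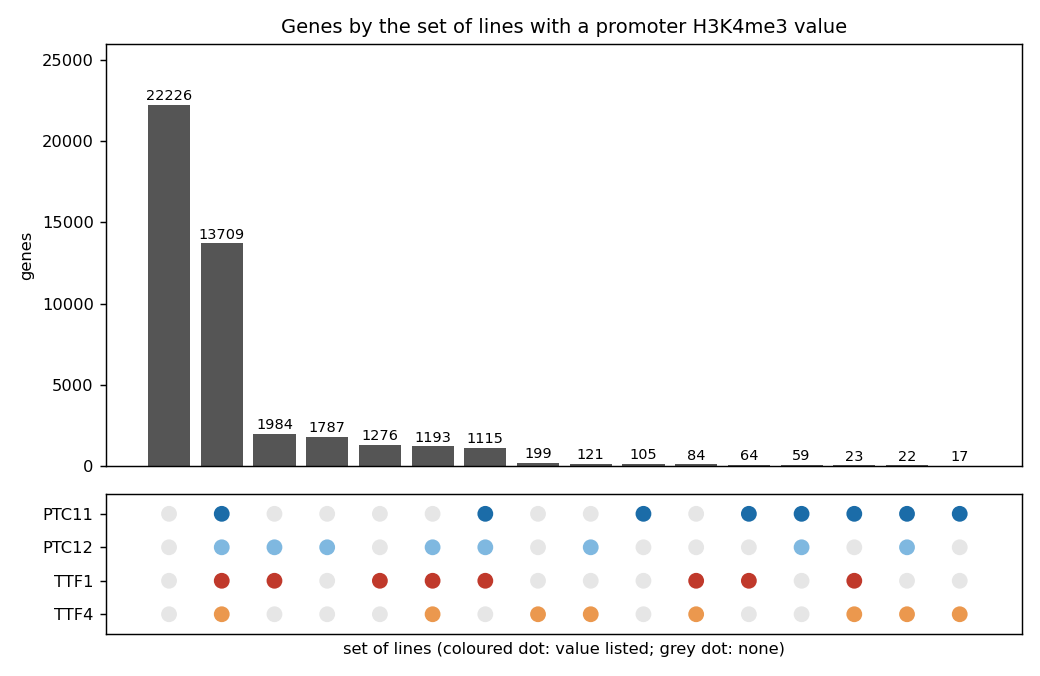
Bars give the number of genes (y axis) for each of the 16 sets of lines with a listed promoter H3K4me3 value, and the dots under each bar show which lines are in the set. The bars for PTC12 and TTF1 together (1984 genes) and for 3 lines without PTC11 (1193) or TTF4 (1115) stand far above those for the 2 PTC lines (59) or the 2 TTF lines (84) alone. The bars for the remaining pairs are also low (17 to 121).

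The promoters of 6 genes are shown to set CpG content beside the mark, each with its CpGs in capitals, from 250 bases before to 50 bases after the RefSeq start on GRCm38.p6, the assembly of mm10. Pou5f1 and Nanog encode core pluripotency factors, Pax2 a regulator of kidney development, and Slc34a1 the proximal tubule phosphate transporter. Zfp42, a marker of naive pluripotency, and Wnt9b, a ureteric bud ligand of nephron induction, were added after their values were seen, as examples of genes that lacked a value in TTF4 or in PTC11 alone.
Pou5f1: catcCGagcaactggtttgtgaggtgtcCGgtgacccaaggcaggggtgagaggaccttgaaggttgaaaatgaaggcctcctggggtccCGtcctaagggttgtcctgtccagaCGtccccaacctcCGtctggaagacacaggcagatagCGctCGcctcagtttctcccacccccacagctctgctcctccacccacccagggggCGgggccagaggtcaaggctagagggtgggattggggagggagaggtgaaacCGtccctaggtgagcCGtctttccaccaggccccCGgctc
Nanog: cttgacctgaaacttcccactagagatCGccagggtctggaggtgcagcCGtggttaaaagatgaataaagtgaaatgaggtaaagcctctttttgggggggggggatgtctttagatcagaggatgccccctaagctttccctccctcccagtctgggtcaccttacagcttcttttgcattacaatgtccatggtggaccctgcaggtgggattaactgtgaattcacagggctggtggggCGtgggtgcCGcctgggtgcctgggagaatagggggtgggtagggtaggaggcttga
Pax2: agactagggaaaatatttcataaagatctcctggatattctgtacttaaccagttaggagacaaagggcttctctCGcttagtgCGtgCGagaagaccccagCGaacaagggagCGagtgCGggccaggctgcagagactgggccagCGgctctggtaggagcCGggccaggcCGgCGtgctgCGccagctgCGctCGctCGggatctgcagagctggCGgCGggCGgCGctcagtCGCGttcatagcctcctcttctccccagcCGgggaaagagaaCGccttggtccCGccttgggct
Slc34a1: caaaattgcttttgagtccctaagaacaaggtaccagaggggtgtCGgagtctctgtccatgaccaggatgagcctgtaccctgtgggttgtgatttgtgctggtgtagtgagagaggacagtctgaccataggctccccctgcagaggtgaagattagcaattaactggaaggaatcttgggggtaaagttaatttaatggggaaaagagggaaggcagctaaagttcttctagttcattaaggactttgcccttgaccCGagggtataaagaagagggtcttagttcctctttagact
Zfp42: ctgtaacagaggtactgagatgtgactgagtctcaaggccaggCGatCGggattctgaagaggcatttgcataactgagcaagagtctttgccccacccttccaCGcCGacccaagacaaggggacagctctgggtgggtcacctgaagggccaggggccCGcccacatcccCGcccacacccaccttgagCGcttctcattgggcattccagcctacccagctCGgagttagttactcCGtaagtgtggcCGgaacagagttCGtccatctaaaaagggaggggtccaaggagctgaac
Wnt9b: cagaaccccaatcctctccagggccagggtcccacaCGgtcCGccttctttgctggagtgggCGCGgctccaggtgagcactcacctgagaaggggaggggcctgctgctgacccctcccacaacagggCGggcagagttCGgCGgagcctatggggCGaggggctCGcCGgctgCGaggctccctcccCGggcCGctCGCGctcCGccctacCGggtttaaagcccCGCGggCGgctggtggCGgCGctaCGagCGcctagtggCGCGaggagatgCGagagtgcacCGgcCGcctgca
They lie at chr17:35505782-35506081 (plus strand), chr6:122707239-122707538 (plus), chr19:44755502-44755801 (plus), chr13:55399398-55399697 (plus), chr8:43306960-43307259 (minus) and chr11:103749772-103750071 (minus). The RefSeq start lies 5 bases from the start used in the files for Pou5f1, 297 bases for Pax2, and at the same base for the other 4. Wnt9b holds 29 CpGs in these 300 bases and Pax2 23, against 11 each in Pou5f1 and Zfp42, 4 in Nanog and 2 in Slc34a1. Slc34a1, which has the fewest, had no H3K4me3 value in any line.

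Over all genes the presence of a peak followed CpG content closely. Genes with a value in all lines had a median of 94 CpGs within 1000 bp of the TSS (quartiles 72 and 122), genes marked in 1 to 3 lines had 37 (27 and 54), and genes marked in no line had 16 (10 and 23). Of the 8896 promoters with at least 85 CpGs, 8341 had a value in all lines, 550 in some and 5 in none. Those 5 were the assembled-clone genes AC158361.1, AC158361.2 and AC158361.3, the pseudogene Gm11623, and Taf9b, an X-linked subunit of transcription factor TFIID. At the other end, in the lowest of 5 equal bins of genes by CpG count, a value was listed for 1.43% of genes in PTC12 and 1.15% in TTF1, against 0.455% in PTC11 and 0.398% in TTF4.

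In percentage points the lines differed most in the middle bin and the one above it. In the middle bin, which held 22 to 39 CpGs, a value was listed for 29.4% of genes in PTC12 and 25.6% in TTF1, against 8.54% in PTC11 and 9.28% in TTF4. In the bin above it, of 39 to 85 CpGs, the shares were 88.9% and 87.9%, against 65.0% and 66.4%. In the top bin the shares ran only from 96.1% to 99.9%. PTC12 and TTF1 therefore reached further into promoters with fewer CpGs than PTC11 and TTF4 did, in both origins. The level also rose with CpG count in PTC12, from a mean of 4.04 RPKM in the middle bin to 5.59 in the top bin, and in TTF1 from 4.51 to 6.0. In PTC11 it went from 3.29 to 3.71 and in TTF4 from 3.29 to 3.75, with little between the upper 2 bins.

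**Figure D2:**
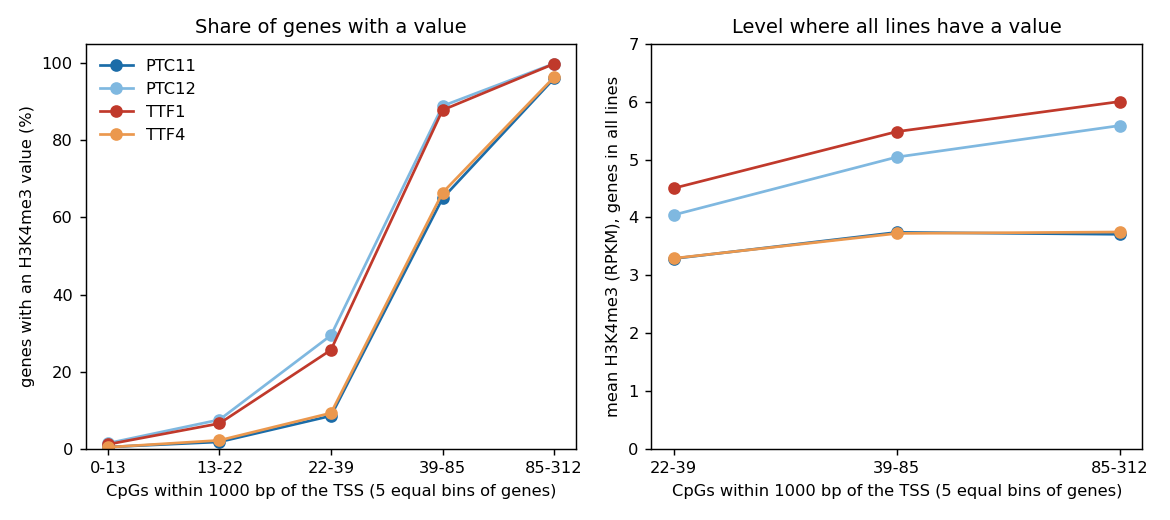
The left panel gives the percentage of genes with an H3K4me3 value in each line for 5 equal bins of genes by CpG count within 1000 bp of the TSS, and the right panel the mean RPKM of genes with a value in all lines for the upper 3 bins (the 2 lowest hold 5 and 35 such genes). PTC12 and TTF1 run together above PTC11 and TTF4, with the widest gap in share in the bins of 22 to 39 and 39 to 85 CpGs, and all lines lie at or above 96.1% in the top bin.

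Short motifs in the 300 bases around the TSS, searched on both strands, were compared between marked and unmarked genes, with GGGCGG more frequent and TATAAA less frequent at marked genes and CCAAT nearly equal. GGGCGG, the core of the GC box, was found at 66.2% of genes marked in all lines and at 4.27% of unmarked genes, against 27.4% of all genes listed. TATAAA was found at 6.32% of the former and 24.1% of the latter, against 16.6% of all. CCAAT, the core of the CCAAT box, was at 37.7% and 39.7%, against 38.3% of all. GGGCGG contains a CpG, so that its share is not independent of CpG count. TATAAA holds only A and T, so that its share is not independent of base composition either. The median GC content within 1000 bp of the TSS was 54.8% at genes marked in all lines and 42.8% at unmarked genes. Among the promoters printed above, GGGCGG was found in Pou5f1, Pax2, Zfp42 and Wnt9b, and TATAAA only in Slc34a1.

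Among genes with a value in all lines, 17 had a mean above 10 RPKM and were left out of means. The highest was Gm10800, a gene model of satellite repeat sequence, at 8562 RPKM in PTC11 and 0 in PTC12, against 0 in TTF1 and 19258 in TTF4. AY036118, a ribosomal RNA repeat transcript, had 56.3 RPKM in PTC11 and 215.9 in PTC12, against 111.4 in TTF1 and 55.6 in TTF4. The other named ones of the highest 6 were Gm12735 and 3 unnamed assembled loci (XLOC_022617, XLOC_027981 and XLOC_009288), with values from 22.1 to 171 RPKM. Reads from repeated sequence cannot be assigned to 1 copy, so that these levels are uncertain.

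For the remaining 13692 genes the mean level was 3.71 RPKM in PTC11 and 5.34 in PTC12, against 5.77 in TTF1 and 3.72 in TTF4. The mean over lines was 4.52 ± 1.15 RPKM in PTC iPSCs and 4.75 ± 1.44 in TTF iPSCs (SD, n = 2 lines each), a difference of 0.222 RPKM that was smaller than the spread within either origin (exact permutation test over lines, two-sided p = 0.667). The direction turned without PTC11 (-0.594 RPKM) or without TTF1 (-0.800 RPKM), and the difference grew to 1.04 RPKM without PTC12 and 1.24 without TTF4. The range of levels was narrow in PTC11 and TTF4, where the 95th percentile was 1.89 and 2.00 times the 5th. In PTC12 and TTF1 it was 2.43 and 2.47 times. Quantile normalization, which gives every line the same distribution, left a difference of -0.000265 RPKM.

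**Figure D3:**
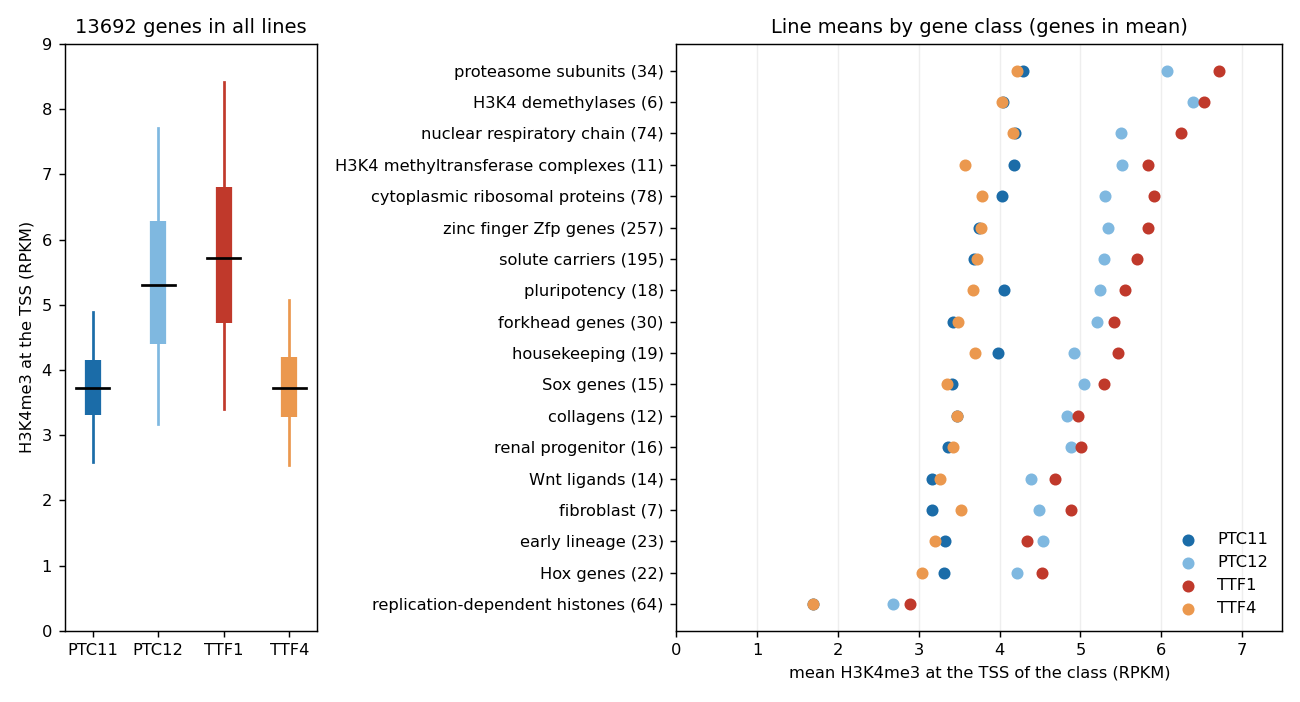
The left panel shows H3K4me3 at the TSS (RPKM) per line for the 13692 genes with a value in all lines and a mean at or below 10 RPKM, with the 5th to 95th percentile as a thin line, the quartiles as a thick bar and the median in black. The right panel shows the mean of each line for 18 gene classes, with the number of genes in each mean, and in every class PTC12 and TTF1 lie to the right of PTC11 and TTF4.

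Which genes ranked high was only partly shared between lines. Across the 13692 genes, the Spearman correlation was 0.663 for PTC12 with TTF1, 0.451 for PTC12 with TTF4 and 0.471 for TTF1 with TTF4. With PTC11 it was 0.339 for PTC12, 0.373 for TTF1 and 0.371 for TTF4. These are descriptions across genes that share input subtraction and CpG content. The highest 10% of each line held 1370 genes, and 65 genes were in the highest 10% of every line.

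The 6 genes with the highest means at or below 10 RPKM are given first. Snord37, a small nucleolar RNA gene, had 4.31 RPKM in PTC11 and 8.97 in PTC12, against 9.01 in TTF1 and 11.8 in TTF4. Ipo7, a nuclear import receptor, had 6.13, 9.87, 11.3 and 5.11 RPKM in the same order of lines. Kptn, which encodes an actin-associated protein, had 5.05, 5.69, 13.5 and 8.14 RPKM. At Snord37 and Kptn the TTF lines were both higher than either PTC line (log2 fold changes of 0.64 and 0.86, limma adjusted p = 1 for each), and the origins overlapped at Ipo7. March2, a membrane-bound ubiquitin ligase, Tmco7 and Pex7, a peroxisomal import receptor, completed the highest 6, with means over lines from 7.92 to 8.08 RPKM. Snord37 and Pex7 lie on chromosome 10, where the median of genes marked in all lines was 4.70 RPKM in TTF4, while on the other autosomes it ran from 3.58 to 3.76 in that line. On the log2(RPKM + 1) scale the level was most even at 1810030O07Rik on chromosome X, at 4.41, 4.41, 4.46 and 4.33 RPKM in PTC11, PTC12, TTF1 and TTF4. Zgpat, a transcriptional repressor, was nearly as even, at 4.2, 4.22, 4.07 and 4.18 RPKM. Ube2t and Capn5 came next among the 9112 protein coding genes of 4 to 10 RPKM. AW822073 varied most, at 1.29, 9.94, 9.30 and 5.57 RPKM, followed by Mettl21d, Coq2 and Zcchc10.

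Pluripotency genes were examined next, because they maintain the state that iPSCs of either origin share. Of 30 listed, 18 had a value in all lines, 10 in some and 2 in none. Their mean was 4.06 RPKM in PTC11 and 5.24 in PTC12, against 5.55 in TTF1 and 3.67 in TTF4, close to the mean of all genes in each line (1.09, 0.981, 0.963 and 0.985 times). PTC lines averaged 4.65 ± 0.837 RPKM and TTF lines 4.61 ± 1.33 (SD, n = 2 lines each), a difference of -0.0387 RPKM with an exact permutation p of 1.

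Pou5f1, which encodes Oct4 (ENSMUSG00000024406, mm10 chromosome 17, 35506037 to 35510776), had 4.25 RPKM in PTC11 and 4.61 in PTC12, against 5.56 in TTF1 and 4.24 in TTF4. Sox2, its partner on DNA, had 4.05, 5.73, 7.35 and 3.53 RPKM in the same order. Klf4 had 3.93, 5.84, 6.05 and 2.98 RPKM. All 3 are also factors of the OKMS transgene, though their endogenous promoters do not lie in it, and in all 3 the origins overlapped. Nanog, with 34 CpGs within 1000 bp, was the lowest of the 18 at 3.47, 2.80, 3.36 and 2.89 RPKM. Klf5, a Krüppel-like factor of embryonic stem cells, was the highest at 4.77, 5.09, 7.78 and 3.84 RPKM. Tfcp2l1, a naive pluripotency factor, was the only listed one whose origins did not overlap, at 5.97 and 6.35 RPKM in PTC lines and 4.29 and 4.15 in TTF lines. Its log2 fold change of -0.46 had a limma adjusted p of 1. Over all 13709 genes both TTF lines lay below both PTC lines at 3.17% of genes and above them at 5.04%, so that 1 of 18 is near the background.

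The pluripotency genes that lacked a value in some lines lacked it mostly in TTF4. Dppa2, Dppa3, Dppa4, Dppa5a, Gdf3, Prdm14, Tcl1 and Zfp42 had a value in PTC11, PTC12 and TTF1 and none in TTF4, and no pluripotency gene lacked a value in PTC11 alone. Among all genes marked in PTC11, PTC12 and TTF1, 7.52% lacked a value in TTF4, against 8 of these 26 pluripotency genes. Zfp42 (Rex1) had 4.86 RPKM in PTC11, 2.54 in PTC12 and 3.11 in TTF1. Dppa3 (Stella), a maternal factor that protects DNA from demethylation, had 3.79, 2.83 and 3.24 RPKM. Prdm14, a repressor of lineage genes in naive cells, had 3.02, 3.06 and 4.16 RPKM. Some of these levels lay above that of Nanog in the same line and others below it, and Nanog had 2.89 RPKM in TTF4. Whether a missing value in TTF4 was an absent mark or one under the threshold for a peak was not tested. Gdf3, a TGF-beta ligand of pluripotent cells, had 3.92, 2.72 and 5.26 RPKM. Tcl1, an Akt coactivator, had 3.64, 3.19 and 4.00 RPKM. Dppa5a had the lowest values of the list, 1.06, 0.661 and 1.23 RPKM, and it belongs to a family of near copies, so that its reads are uncertain. Fbxo15 had a value only in the PTC lines (3.43 and 1.32 RPKM), Dnmt3l only in TTF1 (2.45 RPKM), and Esrrb and Nr5a2, both orphan nuclear receptors, had none in any line at the start used in the files.

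The promoters of these 8 genes were more methylated in TTF4 than in any other line. CpG methylation is the fraction of methylated CpGs within 1 kb of the TSS from nanopore reads of the same 4 lines, a measure that the peak calls did not use. At Zfp42 it was 0.0284 in PTC11 and 0.209 in PTC12, against 0.100 in TTF1 and 0.803 in TTF4. At Tcl1 it was 0.00476, 0, 0.0197 and 0.946. Over the 8 genes the fraction in TTF4 ran from 0.608 to 0.946, and in the other lines from 0 to 0.359, so that the ranges did not meet. At the 18 genes marked in all lines the median was 0.113 in TTF4 and 0.0251, 0.0416 and 0.0297 in PTC11, PTC12 and TTF1. The 8 genes had 26 to 80 CpGs within 1000 bp (median 42.5), and the 18 had 34 to 179 (median 114).

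**Figure D4:**
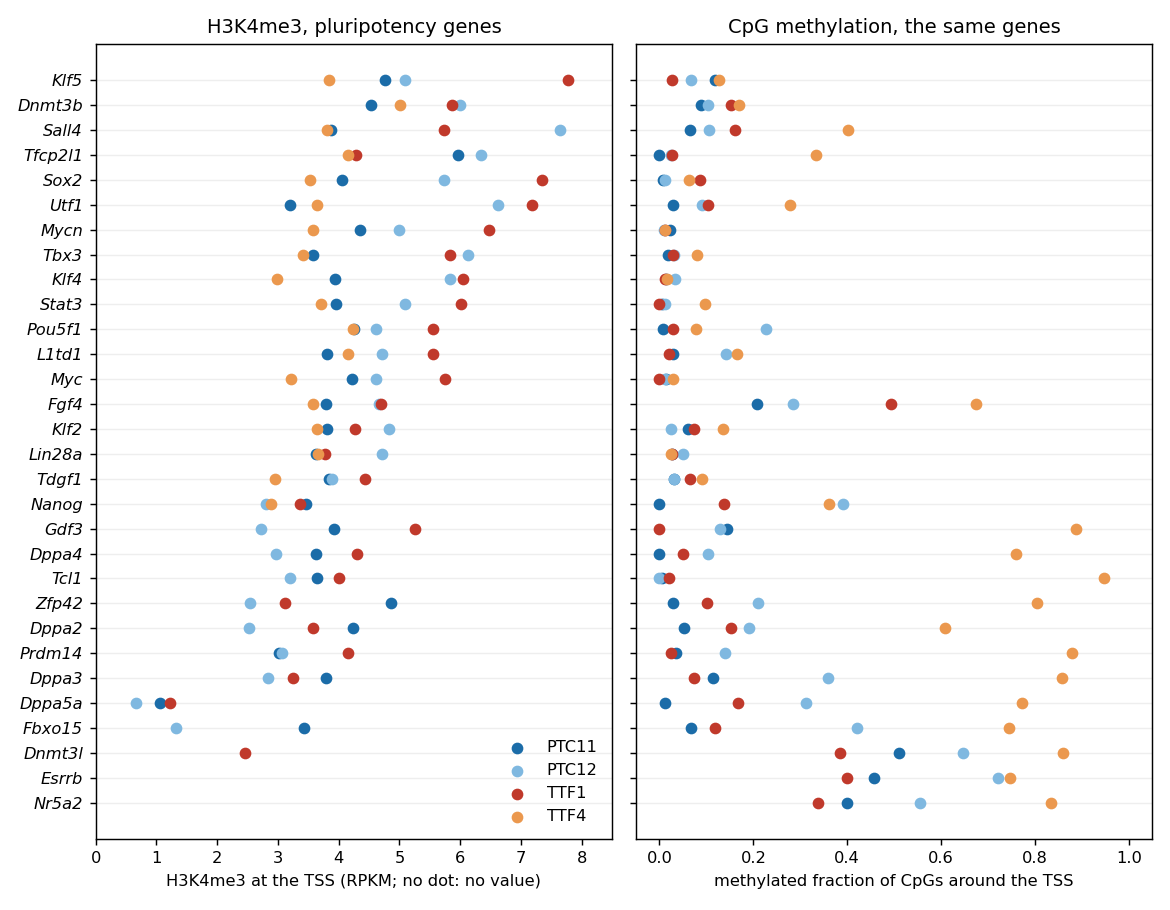
Each row is 1 of the 30 listed pluripotency genes, with H3K4me3 at the TSS (RPKM) on the left and the methylated fraction of CpGs around the TSS on the right, 1 dot per line, and a missing dot on the left means that no value was listed. The 8 genes from Gdf3 to Dppa5a lack the TTF4 dot on the left and have TTF4 at 0.608 or more on the right, while their other lines lie at 0.359 or less.

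The same held over the whole table. The 905 genes marked in all lines but TTF4 that had a methylation value in every line had median fractions of 0.195 in PTC11 and 0.281 in PTC12, against 0.209 in TTF1 and 0.818 in TTF4, and TTF4 was above 0.5 at 87.8% of them. The 1018 such genes marked in all lines but PTC11 had medians of 0.193, 0.250, 0.197 and 0.413, and PTC11 was above 0.5 at 7.56% of them. A missing value in TTF4 thus mostly went with high methylation in TTF4. Listed genes that went the other way included Hoxc8 and Hoxc12, at 0.105 to 0.124 in TTF4, Foxo4 at 0.185 and Hist1h2ab at 0.192. A missing value in PTC11 went with no higher methylation in PTC11 than in TTF1. As raw fractions TTF4 had the highest median of the 4 lines in every one of these groups, also at the 12710 genes marked in all lines, where the medians were 0.0696, 0.0998, 0.0704 and 0.211. Relative to the mean of the other lines, TTF4 was higher by a median of 0.533 at genes unmarked in TTF4 alone, 0.165 at genes unmarked in PTC11 alone and 0.113 at genes marked in all lines. That order depends on the scale. With each line taken relative to its own mean over all genes, the medians at genes marked in all lines were -0.252 in PTC11 and -0.321 in PTC12, against -0.258 in TTF1 and -0.375 in TTF4, so that TTF4 was the lowest. At genes that lacked a value only in PTC11 they were -0.128, -0.171, -0.131 and -0.172, with TTF4 again lowest. At genes that lacked it only in TTF4 they were -0.127, -0.139, -0.119 and 0.233, with TTF4 the highest, and the median excess of TTF4 over the mean of the other lines was 0.304. On the raw scale, this excess was 0.531 among promoters of 40 to 80 CpGs. The part of methylation in the missing values was not tested, and methylation was measured once per line.

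Genes marked in PTC12 and TTF1 only had intermediate methylation in the other lines and high methylation in TTF4, with medians of 0.342 in PTC11 and 0.478 in PTC12, against 0.347 in TTF1 and 0.828 in TTF4 over 1498 genes. In both marked lines the fraction was no lower than in PTC11, which lacked the peak. Genes marked in no line had medians of 0.494, 0.659, 0.5 and 0.840 over 14970 genes.

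**Figure D5:**
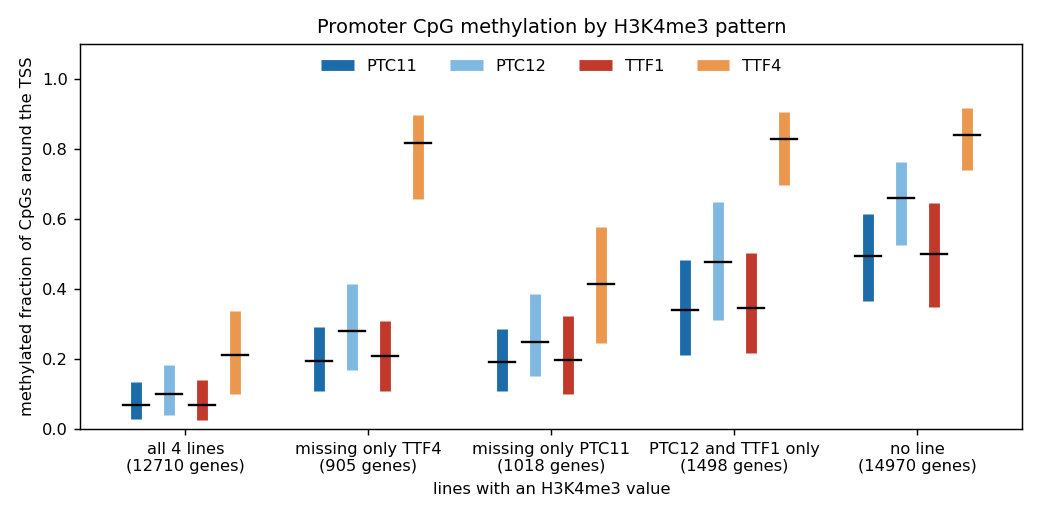
Bars span the quartiles and black marks the median of the methylated fraction of CpGs around the TSS (y axis) in each line, for genes grouped by the lines with an H3K4me3 value (x axis, with the number of genes with a fraction in all lines). At genes that lack a value only in TTF4 the TTF4 median is 0.818, and at genes that lack it only in PTC11 the PTC11 median is 0.193.

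Renal progenitor genes had values in at least 1 line throughout the list. Of 26, 16 were marked in all lines, and 6 of the 22 marked in PTC12, TTF1 and TTF4 lacked a value in PTC11, against 8.01% of all genes marked in those lines. Gata3, a transcription factor of the nephric duct, had no value in PTC11, 2.95 RPKM in PTC12, 4.25 in TTF1 and 3.88 in TTF4. Osr1, which marks the intermediate mesoderm, had 4.11, 4.55 and 3.17 RPKM in PTC12, TTF1 and TTF4. Wnt9b had 4.56, 4.09 and 2.35 RPKM, and Hoxb7, Tfap2b and Agtr1a showed the same pattern. The promoter methylation of these 6 genes was at most 0.313 in PTC11, the line without a value. Pax2 (ENSMUSG00000004231, chromosome 19, 44756049 to 44838268) had 3.66 RPKM in PTC11 and 4.56 in PTC12, against 4.83 in TTF1 and 3.38 in TTF4. Six2, which keeps nephron progenitors self-renewing, had 2.72, 5.19, 5.78 and 3.17 RPKM. Sall1 was the highest of the list, at 4.19, 6.21, 6.55 and 3.79 RPKM. The class mean was 4.12 ± 1.07 RPKM in PTC lines and 4.21 ± 1.12 in TTF lines (SD, n = 2 lines each; exact permutation p = 0.667), and the origins overlapped at all 16 genes, against a background of 5.04% of all genes with both TTF lines above and 3.17% with both below.

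Most listed genes of the donor cell types lacked a value in at least 1 line, as did most genes of the whole table. Of 29 rows for proximal tubule genes (Dab2 is listed at 2 loci), 4 had a value in all lines, namely Ass1, Lrp2, Slc27a2 and Slc4a4, and 14 in none. These were 13.8% and 48.3% of the rows, against 31.2% and 50.5% of all genes listed and 53.3% and 29.9% of protein coding genes. Lrp2, the endocytic receptor megalin, had 4.01 RPKM in PTC11 and 5.97 in PTC12, against 7.15 in TTF1 and 4.16 in TTF4. Slc34a1, whose promoter drives the Cre allele, was unmarked in all lines, and so were the transporters Slc5a2, Slc22a6 and Slc22a8. Gatm, of creatine synthesis, was marked at 5.13, 3.67 and 4.60 RPKM in PTC11, PTC12 and TTF1 and had no value in TTF4, where its promoter methylation was 0.896. No listed proximal tubule gene had a value in both PTC lines and neither TTF line. That pattern was found at only 0.134% of all genes listed, so that its absence from so short a list says little. Ggt1, of glutathione breakdown, had a value only in the TTF lines (2.44 and 2.58 RPKM), as did 0.191% of all genes listed.

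Of 26 fibroblast genes, 7 had a value in all lines (26.9%) and 8 in none (30.8%), the latter including the matrix genes Col3a1, Dcn, Lum and Postn. The share in none was close to the 29.9% of protein coding genes and below the 50.5% of all genes listed. Vim, Col1a1, Col1a2, Pdgfra and Prrx1 lacked a value in PTC11 alone. They were 5 of the 12 fibroblast genes marked in PTC12, TTF1 and TTF4, against 8.01% of all genes marked in those lines. Col1a1, a chain of type I collagen, had 2.69 RPKM in PTC12, 2.65 in TTF1 and 3.01 in TTF4. Pdgfra, a receptor of mesenchymal cells, had 3.51, 3.74 and 3.72 RPKM. PTC12 had a value at all 5, so that none was marked in the TTF lines only. Fn1, encoding fibronectin, was the only listed fibroblast gene whose origins did not overlap, at 3.89 and 4.16 RPKM in PTC lines and 5.44 and 4.53 in TTF lines (log2 fold change 0.25, limma adjusted p = 1). This is 1 of 7 genes, against a background of 5.04% of all genes in this direction. The class mean was 3.82 ± 0.934 RPKM in PTC lines and 4.2 ± 0.959 in TTF lines, a difference of 0.380 RPKM (SD, n = 2 lines each; exact permutation p = 0.667).

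Regulators of early lineages were widely marked. All 30 had a value in at least 1 line and 23 in all lines (76.7%), with CpG-rich promoters (median 106 within 1000 bp). The share in all lines was 31.2% of all genes listed and 53.3% of protein coding genes. It was 93.8% in the top bin of genes by CpG count, of 85 to 312 CpGs. T, the mesoderm factor Brachyury, had 3.50 RPKM in PTC11 and 4.77 in PTC12, against 3.69 in TTF1 and 3.06 in TTF4. Mixl1, of mesendoderm, had 1.87, 5.30, 6.05 and 3.42 RPKM. The class mean was below that of all genes in every line (0.895, 0.848, 0.752 and 0.858 times), and so was that of the Hox genes (0.893, 0.790, 0.785 and 0.815 times), whose products pattern the body axis. Of 39 Hox genes, 22 had a value in all lines. Of the 30 marked in PTC12, TTF1 and TTF4, 8 lacked a value in PTC11, against 8.01% of all genes marked in those lines. The promoter methylation of these 8 genes in PTC11 was at most 0.355 (median 0.0648). Hoxb3, Hoxc4 and Hoxd4 had no value in any line, with 23 CpGs each around the start used in the files.

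Germline genes were marked mainly in PTC12 and TTF1. All 26 had a value in at least 1 line, but only Tex14 and Stag3 in all lines, and 13 had one in PTC12 and TTF1 only. Of all genes listed, 31.2% had a value in all lines and 4.51% in PTC12 and TTF1 only. PTC12 had a value at 24 of the 26 germline genes, TTF1 at 18, PTC11 at 3 and TTF4 at 2. In the same order, a value was listed for 45.4%, 44.2%, 34.4% and 34.9% of all genes. Ddx4, a germ cell RNA helicase, had 2.94 RPKM in PTC12 and 3.08 in TTF1. Dazl, a germ cell RNA-binding protein, had 2.94 and 2.80 RPKM, although its promoter has 141 CpGs within 1000 bp. Dmc1, the meiotic recombinase, was marked in all lines but TTF4. Over the 13 genes the median methylated fraction was 0.334 in PTC11 and 0.515 in PTC12, against 0.396 in TTF1 and 0.904 in TTF4.

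Classes of genes used in most cells were nearly complete, with class means near or above that of all genes. Of 39 proteasome subunit genes, 34 had a value in all lines, with class means of 4.29 RPKM in PTC11 and 6.07 in PTC12, against 6.72 in TTF1 and 4.21 in TTF4 (1.16, 1.14, 1.17 and 1.13 times the mean of all genes). Nuclear respiratory chain genes, 74 of 76 in all lines, had 1.13, 1.03, 1.08 and 1.12 times. Cytoplasmic ribosomal protein genes, 78 of 85 in all lines, had 1.09, 0.994, 1.02 and 1.01 times. Of 20 housekeeping genes 19 had a value in all lines, and Eef1a1, a translation elongation factor, lacked it in TTF4, where its methylated fraction was 0.648. Ash2l, a core subunit of the complexes that deposit H3K4me3, also lacked it only in TTF4, at 4.76, 2.88 and 3.12 RPKM in the other lines and with a methylated fraction of 0.900 in TTF4 against 0.0133 in PTC11. Of the 13 listed genes of those complexes 11 had a value in all lines, and Dpy30 had none. The demethylase Kdm5a, which removes the mark, had 4.70, 6.87, 7.74 and 4.99 RPKM.

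Replication-dependent histone genes were nearly all marked but low, with 64 of 69 in all lines and class means of 1.69 RPKM in PTC11 and 2.68 in PTC12, against 2.89 in TTF1 and 1.69 in TTF4. This was 0.457, 0.502, 0.501 and 0.454 times the mean of all genes. These genes are near-identical copies in clusters, so that reads may be shared or lost between them. At the low end were also the 48 ribosomal RNA genes with a value in all lines, at 0.389, 0.656, 0.711 and 0.424 RPKM. By annotation, 53.3% of 21160 protein coding genes were marked in all lines, against 90.0% of 80 bidirectional promoter lncRNA genes, 28.2% of antisense genes, 19.0% of lincRNA genes and 0.698% of processed pseudogenes. Of 1098 olfactory receptor genes 1071 had no value, and none had a value in all lines.

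Of the 42 classes with 3 or more genes in the mean (23 lists and 19 annotation types), none had both TTF lines on 1 side of both PTC lines. In all 42 both PTC12 and TTF1 lay above both PTC11 and TTF4. The difference of class means, TTF minus PTC, ran from -0.385 to 0.380 RPKM, and no exact permutation p was below 0.667. After quantile normalization 13 classes did not overlap, with TTF lower in 10 and higher in 3. Among them were pluripotency genes (5.15 and 4.56 RPKM in PTC11 and PTC12, 4.49 and 4.54 in TTF1 and TTF4) and fibroblast genes (3.8 and 3.97 against 4.03 and 4.33). At renal progenitor and proximal tubule genes the origins overlapped. In the exact permutation test even a complete separation of 2 lines from 2 reaches only p = 0.333. Each class thus had a probability of 0.333 of separating under a random assignment of lines to origins, and 13 of 42 is near that share. The classes come from the same 4 lines and some share genes, so they are not independent trials. The count therefore cannot show whether the separations go with origin.

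Gene by gene, limma on log2(RPKM + 1) called 66 of 13709 genes at an adjusted p under 0.05 (0.481%), 31 higher in TTF iPSCs (0.226%) and 35 lower (0.255%). At 50 of them the mean was under 1 RPKM, and at 51 the lines of the origins overlapped. The count fell to 0 in limma with a constant prior spread in place of one that depends on level, with genes under a mean of 1 RPKM left out, and with genes of identical values counted once, where 3, 14 and 45 genes had an unadjusted p under 0.05 against 134 before. No called gene had a mean above 2.89 RPKM.

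Among called genes of at least 1 RPKM, Igtp and Irgm2, which overlap and share their 4 values, encode interferon-inducible GTPases and stood apart by origin. They had 0.365 RPKM in PTC11 and 2.02 in PTC12, against 2.24 in TTF1 and 2.71 in TTF4 (log2 fold change 0.77, limma adjusted p = 1.79e-05). Without PTC11 the log2 fold change was 0.20 and limma's adjusted p was 1. The gap between the PTC lines was wider than that between PTC12 and either TTF line. The other higher genes, 2310009B15Rik, Hist1h3e, 2610005L07Rik, XLOC_017028 and Zfp456, were likewise lowest in PTC11. Smarca5-ps, a pseudogene, was lower in TTF lines, at 2.04 and 2.30 RPKM in PTC lines, 1.52 in TTF1 and 0.235 in TTF4 (log2 fold change -0.84, limma adjusted p = 1.56e-10). Without TTF4 it was -0.33, with a limma adjusted p of 0.987. Zfp764, a zinc finger gene, had 2.42, 4.15, 4.93 and 0.0663 RPKM, and without TTF4 its log2 fold change turned to 0.50. In TTF4 its methylated fraction was 0.796, against 0.275 to 0.373 in the other lines. Gm14420, XLOC_013394, XLOC_013408, RP23-71I22.6, Hist1h2al and Gm14399 were also lowest in TTF4. All 14 named calls were thus at their lowest in PTC11 or TTF4, the lines with fewer marked genes. Of the 6 higher genes limma called 0 without PTC11, and of the 8 lower genes it called 0 without TTF4. The trended limma fit draws the error of a gene towards that of genes of like level, and the SE of these 14 log2 fold changes was 0.086 to 0.20 in limma, against 0.35 to 1.27 from the values of the 4 lines alone. At Igtp the latter was 0.58 and at Smarca5-ps 0.52.

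The genes marked in both lines of 1 origin only are named by their highest means. Gpr1, a chemerin receptor, led those of PTC lines among annotated genes, at 4.61 RPKM in PTC11 and 3.21 in PTC12, and its promoter methylation was 0.131 and 0.0606 in those lines, 0.153 in TTF1 and 0.372 in TTF4. Morc1, of male germ cell development, had 3.53 and 3.56 RPKM. The other 4 of the highest 6 were unnamed assembled loci. In TTF lines Tmbim1, a membrane protein with a Bax inhibitor motif, had 6.51 RPKM in TTF1 and 2.64 in TTF4, and its methylated fraction was highest in TTF4 (0.813). Calcrl, a receptor of the calcitonin family, had 3.83 and 3.24 RPKM. A U1 snRNA gene, SNORA61 and 2 assembled loci completed the highest 6, and the RNA genes have many copies, so that their reads are uncertain. Within a line the level fell with the number of lines that shared the mark. In PTC12 the median was 5.31 RPKM at genes marked in all lines, 3.37 where 3 lines were marked, 2.58 where 2 were and 2.26 where PTC12 was alone.

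Gene bodies of promoters marked in all lines mostly carried H3K36me3, the mark of elongating polymerase. A gene-body value was listed for 97.6% of them in PTC11 and 90.5% in PTC12, against 85.6% in TTF1 and 81.2% in TTF4. For genes without promoter H3K4me3 the shares were 42.5%, 26.3%, 28.3% and 23.3%. At genes that lacked promoter H3K4me3 only in TTF4, 72.8% still had a gene-body value in TTF4, against 79.0% in PTC12. PTC11, which had the fewest promoters with H3K4me3, had the highest share of genes with H3K36me3 in each of these groups.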

How the data were processed

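H3K4me3 was measured by ChIP-seq in 4 lines, from fixed cells with MNase and sonication, and 50000000 reads per library are stated in the methods. The methods also describe ChIP in duplicate for each line, while 1 H3K4me3 column per line was analysed here, so the spread between duplicates is not covered. The authors trimmed reads with Trim Galore 0.0.4, aligned them to mm10 with Bowtie2 2.1.0, called peaks per library against input with MACS2 2.0.10 and counted reads with bedtools 2.17.0. The deposited H3K4me3 values are RPKM per peak minus the input RPKM, averaged over the peaks from 2 kb before to 3 kb after a TSS, and H3K36me3 values are averages over gene bodies. Although the methods drop peaks that are not above 0, zeros are listed (193 to 453 per line) and were kept as values. The deposited methylation values are fractions of methylated CpGs, averaged by the authors over windows within 1 kb of a TSS from nanopore reads aligned with minimap2 2.17-r941. No counts were used here, so depth per library and counting error are unknown.

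Lines were grouped by their labels. The 13709 genes marked in every line were compared on log2(RPKM + 1) with limma 3.58.1 (trended prior, Benjamini-Hochberg adjustment over all of them) in R 4.3.3. The code was run on simulated data whose spread was taken from the same fit. That run could not show whether the fitted spread, and so the calls, are right. Line means and counts were compared with an exact two-sided permutation test in Python 3.11.15. Genes with a mean above 10 RPKM were left out of means only. CpGs were counted within 1000 bp of the TSS of each gene in the mm10 sequence. Of 43984 genes, 36308 were matched to GENCODE M21 for their type, and 5897 were assembled loci without an Ensembl ID. Symbols that had been turned into dates were read from the combined identifier. Among genes in all lines 3144 share their 4 values with another gene, as neighbours can share peaks.

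Genes named are members of symbol lists (highest, lowest, missing in a line, or donor cell, pluripotency and renal genes), up to 8 rises and 8 falls called by limma at a mean of at least 1 RPKM, the 6 highest means below and above 10 RPKM, the 6 highest means marked in 1 origin only, and the 4 smallest and 4 largest ranges among protein coding genes of 4 to 10 RPKM. The lists and the genes described were chosen with earlier results of these data known. Alternatives were quantile normalization, other pseudocounts and filters, missing values as 0, identical values once, and each line left out. No column of H3K27me3 was used.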

Additional observations from a re-analysis of the deposited data

How the results depend on the processing

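The mean difference between origins (TTF minus PTC) was -0.000265 RPKM after quantile normalization and -0.800 to 1.24 RPKM with 1 line left out, and kept its sign under the 5 other settings. The difference in the number of marked genes ran from -2582 to 2294 with 1 line left out. The number of gene classes whose origins did not overlap was 1 with genes above 10 RPKM kept, 13 after quantile normalization, and 4 to 38 with 1 line left out, where a lone line stands for its origin. The difference of class means took the other sign in 22 of 42 classes after quantile normalization, in 10 with missing values as 0, in 35 without PTC11 or without TTF1, and in 7 without PTC12 or without TTF4. The number of genes called by limma was 102 (56 lower) with a pseudocount of 0.1. It was 0 in either direction with no trend, with a mean of at least 1 RPKM, after quantile normalization, with missing values as 0 and with identical values once, where 3, 14, 317, 128 and 45 genes had an unadjusted p under 0.05. With 1 line left out limma called 59 to 108 genes, 16 to 65 higher and 23 to 84 lower. With 1 line left out the log2 fold change ran from -0.022 to 1.00 at XLOC_017028 and from -0.30 to 1.15 at Zfp456, lowest without PTC11. It ran from -1.98 to 0.50 at Zfp764, -1.53 to 0.28 at XLOC_013394, -1.50 to 0.32 at XLOC_013408 and -1.28 to 0.19 at RP23-71I22.6, highest without TTF4. The cause was not tested.

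Chosen after seeing the data, a minimum of 1 RPKM left 1030 genes without a value in TTF4 alone, 1076 in PTC11 alone and 1597 with one in PTC12 and TTF1 only. No paired analysis was possible because the PTC and TTF lines share no line number. The lines were analysed with 1 library each, and RPKM gives no counts, so that a missing value does not separate an absent mark from one under the threshold for a peak in that library.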

Other observations

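The level of H3K4me3 was uneven between chromosomes in single lines. In TTF4 the median over the 685 genes of chromosome 10 with a value in all lines was 4.70 RPKM, while the medians of the other autosomes ran from 3.58 to 3.76. The same genes had medians of 3.74 RPKM in PTC11, 5.33 in PTC12 and 5.80 in TTF1, near those of other chromosomes in these lines. Snord37, a small nucleolar RNA gene, and Pex7, a peroxisomal import receptor, lie on chromosome 10. In PTC11 the highest autosomal median was that of chromosome 8, at 4.10 RPKM over 791 genes, and the next was 3.78. In PTC12 and TTF1 the highest was that of chromosome 16, at 5.60 and 5.99 RPKM, with the next at 5.55 and 5.90. What these differences go with was not tested.

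Genes of the X chromosome had a value less often and at a lower level than those of autosomes. Of 2840 X-linked genes 24.5% had a value in at least 1 line, against 39.5% to 60.0% of the genes of each autosome. The median over the 276 X-linked genes with a value in all lines was 3.55 RPKM in PTC11 and 3.57 in PTC12, against 4.07 in TTF1 and 2.97 in TTF4. In each line this lay below the lowest autosomal median, which was 3.57 in PTC11 and 5.09 in PTC12, against 5.57 in TTF1 and 3.58 in TTF4. The gap was widest in PTC12 and TTF1 and narrow in PTC11. All 8 listed Y-linked genes lacked a value in every line, while over the whole Y chromosome 17 of 434 genes (3.92%) had a value in at least 1 line and 1 in all lines.

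Of 14 trophoblast genes 4 had a value in all lines (28.6%), 3 in some and 7 in none (50.0%). The shares in all lines and in none were 31.2% and 50.5% of all genes listed, and 53.3% and 29.9% of protein coding genes. Of 14 genes of the 2-cell stage 13 had no value in any line, and the exception was Eif1a, a translation initiation factor, with a mean of 4.34 RPKM in PTC lines and 4.78 in TTF lines. Keratin genes, of epithelial filaments, had a value in all lines at 1 of 50 and in 1 to 3 lines at 28. The corresponding shares of all genes listed were 31.2% and 18.3%. Keratin genes had a median of 34 CpGs, and 4.37% of genes in the bin of 22 to 39 CpGs had a value in all lines. Values were listed at 22 keratin genes in PTC12, 16 in TTF1, 3 in TTF4 and 1 in PTC11. In the same order, 45.4%, 44.2%, 34.9% and 34.4% of all genes had a value.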
